A study of Mus musculus with 12 samples.

Results

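The genome-wide response of unsorted hepatoblastoma (HB) cells to hypoxia was described from 6 of the 12 RNA-seq libraries of the series, namely 3 libraries of unsorted hypoxic (UH) cells and 3 of unsorted normoxic (UN) cells. UN cells were kept in 21% oxygen and UH cells in 1% oxygen for 2 days. The comparison covered 18909 of the 45706 listed genes, those whose TPM averaged 0.1 or more across all 12 samples, whichever way they moved. TPM (transcripts per 1000000) are read estimates divided by transcript length and scaled to the same total in every library. The cells were BN1-Tie2-EGFP, a derivative of the immortalized murine line BN1. That line came from a liver tumor of an FVB/N mouse driven by an N-terminally deleted β-catenin (B) and a missense mutant of NRF2 (N), with exon 2 of Cdkn2a targeted by Crispr/Cas9. The normoxic controls carried the same oncogenes, the same Cdkn2a lesion (labelled Cdkn2a KO) and the same reporter, which is EGFP under the promoter of Tie2/Tek, an endothelial receptor gene. The reporter cells were pooled drug-resistant clones of 1 tumor line. All titles, those of unsorted cells included, call the cells EGFP+. The other 6 libraries, used here only for comparison, were of cells sorted for EGFP after 48 h of hypoxia, then grown in normoxia (SN) or returned to hypoxia for 2 days (SH).

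When oxygen is plentiful, prolyl hydroxylases of the EGLN family mark the HIF alpha subunits for destruction by the VHL ubiquitin ligase. In low oxygen the subunits persist, pair with ARNT and bind DNA at sites with a short core sequence next to genes of glycolysis, angiogenesis, mitophagy and of the EGLN enzymes themselves. Prolonged hypoxia also restrains respiration, ribosome production and the cell cycle, and activates the integrated stress response and the unfolded protein response. In liver tumors low oxygen is common where growth outpaces the blood supply.

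Cdkn2a, which encodes the p16INK4A and p19ARF tumor suppressors, was detected in all 6 libraries despite its label. It stood at 196, 327 and 272 TPM in UN replicates 1, 2 and 3, and at 78.7, 77.1 and 66.4 TPM in UH replicates 1, 2 and 3, the order used for all values below. The groups did not overlap, and the log2 fold change was −1.80 (SE 0.192, adjusted p = 1.57e-05). A TPM for the whole gene does not show whether exon 2 is intact. Of the defining markers of endothelial cells 0 of 10 reached 1 TPM in either group, and Tie1, Emcn and Cldn5 were at 0 in all 6 libraries. Hepatocyte and hepatoblast markers summed to 125, 295 and 306 TPM in UN and 236, 218 and 194 TPM in UH, mostly Krt8, Krt18 and Dlk1. Of the same list, albumin averaged only 2.51 TPM in UN and 1.89 TPM in UH. Erythroid markers summed to at most 1.28 TPM in any library. Of 5 immune markers Adgre1 and Tyrobp were at 0, and the sum, nearly all Cd68 and Csf1r, was 4.35 to 7.81 TPM in UN and 20.2 to 21.2 TPM in UH. A longer list of 20 immune markers, 8 of them tested, had the opposite order, with 0.00994% of TPM in UN and 0.00493% in UH on average. Its Cd14 fell from 107, 81.4 and 84.3 TPM to 27.4, 23.6 and 28.3 TPM (−1.74). The part of these cell types in the results was not tested, and in bulk RNA fewer cells of a type cannot be told apart from less RNA per cell.

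Libraries of the same group had a Pearson's r of 0.977 to 0.990 across genes, which are not independent replicates, and UH against UN libraries had 0.930 to 0.944. UN replicate 1 stood apart from the other UN libraries. Among 10509 genes with a UN mean of at least 5 TPM, 488 (4.64%) were more than 2-fold above or below both other UN libraries in it, against 0.542% for UN replicate 2 and 0.238% for UN replicate 3. The sum of 7 stellate cell and fibroblast markers was 3650 TPM in this library, 1007 and 887 TPM in the other UN libraries, and 3834, 5796 and 5060 TPM in UH. Most of this sum was Col1a1 and Col3a1. Pdgfra averaged 142 TPM in UN and 28.4 TPM in UH, Pdgfrb 44.7 and 15.2 TPM and Dcn 172 and 53.8 TPM, and Pdgfra was lower in UN replicate 1 (80.4 TPM) than in the other UN libraries (168 and 176 TPM). Without UN replicate 1 the comparison gave 1112 higher and 2619 lower genes in place of the 1032 and 2222 given below.

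At an adjusted p under 0.05 and a fold above 2, the thresholds for every call here, 1032 genes (5.46% of those tested) were higher and 2222 (11.8%) lower in UH cells. Together 17.2% of genes were called, and 3190 of the 3254 called genes had no overlap between the 3 UH and the 3 UN libraries, a separation also seen in 51.1% of all tested genes. Large changes were more often rises. A log2 fold change above 3 in size was reached by 114 higher genes and 28 lower ones. The balance of directions moved with the scaling of the libraries. The median log2 fold change of all tested genes was −0.19, and after median-of-ratios scaling, which sets that median to 0, 1565 genes (8.28%) were higher and 1224 (6.47%) lower. The share of calls that were higher was 31.7% with TPM as deposited, 56.1% with median-of-ratios scaling and 51.8% with quantile normalization. All 1032 higher and 1224 of the 2222 lower genes were called the same way under median-of-ratios scaling, and 0 in opposite directions. All values are TPM as deposited unless the scaling is named. The scatter of mean TPM shows both features.

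**Figure D1:**
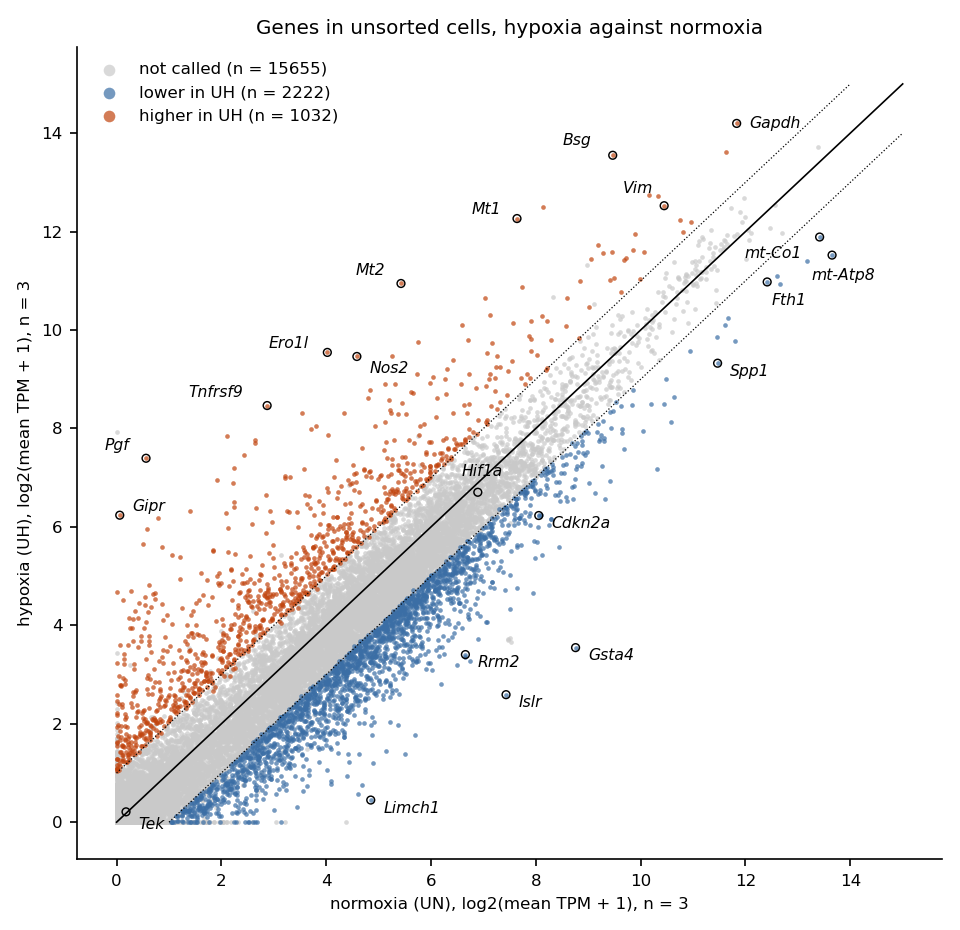
Mean TPM of each tested gene in UN (x) and UH (y), 3 libraries each, as log2(mean TPM + 1), with called genes in colour, some named genes circled, equality as the solid line and a 2-fold difference as dotted lines. The 1032 higher genes reach farther from the diagonal than the 2222 lower genes, with Pgf at a log2 fold change of 6.83 and Gsta4 at −4.86.

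The largest rises joined an angiogenic factor, hormone and cytokine receptors, metal-binding proteins and an oxidase of the secretory pathway. Pgf encodes placental growth factor, a ligand of FLT1, and stood at 0.547, 0.400 and 0.482 TPM in UN and at 178, 172 and 152 TPM in UH. Its log2 fold change was 6.83 (SE 0.242, adjusted p = 8.33e-09). Gipr, the receptor for the gut hormone GIP, went from at most 0.0841 TPM in any UN library to 61.5, 82.7 and 79.0 TPM in UH (log2 fold change 6.17). Tnfrsf9 encodes the costimulatory receptor 4-1BB and stood at 12.2, 2.87 and 3.86 TPM in UN and at 322, 377 and 358 TPM in UH (5.81). Ero1l encodes the oxidase that drives disulfide formation in the endoplasmic reticulum, and it stood at 17.5, 13.1 and 15 TPM in UN and at 602, 755 and 880 TPM in UH (5.51). None of these genes had overlapping groups, which was a condition for naming them. Others of the 15 largest rises were the uncharacterized gene 2610528A11Rik (5.92), the mitochondrial protein gene Mgarp (5.42), the T-type calcium channel gene Cacna1h (5.36), Ndrg2 (5.16), Rtn4rl2 (5.07) and Selenbp1 (5.04).

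The largest falls were led by detoxification enzymes and secreted matrix proteins. Gsta4 encodes a glutathione transferase for lipid aldehydes and stood at 110, 572 and 614 TPM in UN and at 12, 10.03 and 10.1 TPM in UH. Its log2 fold change was −4.86 (SE 0.509, adjusted p = 1.35e-05), and the lowest UN library, replicate 1, still lay above every UH library. Islr, a secreted leucine-rich repeat protein gene, was at 51.6, 245 and 218 TPM in UN and at 4.44, 4.86 and 5.76 TPM in UH (−4.56). The same low position of UN replicate 1 was seen in Limch1, at 5.86, 38.4 and 39.2 TPM in UN and at most 0.491 TPM in UH (−4.03). Further falls were those of the thyroid hormone deiodinase gene Dio3 (−3.60), the small leucine-rich proteoglycan gene Fmod (−3.38) and the imprinted gene Peg10 (−3.25). Fmod was at 7.24, 75.5 and 68.9 TPM in UN and at 1.96, 2.73 and 2.53 TPM in UH. Without UN replicate 1 the log2 fold change was −5.67 for Gsta4, −5.27 for Islr, −4.87 for Limch1, −4.43 for Fmod and −3.92 for Peg10.

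Some genes crossed from near silence to clear expression. A mean under 0.5 TPM in UN with at least 5 TPM in UH was found for 46 genes, of which 43 were called and 43 did not overlap. The reverse was found for 18 genes, of which 14 were called and 13 did not overlap. A wide gap between the means was the rule of choice, so these calls and separations were largely fixed by it. Of all tested genes 17.2% were called and 51.1% did not overlap. Besides Pgf and Gipr the first set held Cacna1h (0.486 to 61.3 TPM), the matrix gene Vwa1 (0.417 to 49.2 TPM) and the protease gene Prtn3 (0.214 to 25 TPM). Its member of highest level, the small RNA gene Rn7s2, was at 0 in 4 of the 6 libraries and at 164 and 564 TPM in the others, and was not called unless UH replicate 3 was left out.

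Genes of glucose use were higher as a group. Of 22 tested glucose transporters and glycolytic enzymes 16 rose and 0 fell, with a median log2 fold change of 2.22, against −0.19 over all tested genes. Slc2a1, which encodes the glucose transporter GLUT1, stood at 48.8, 31.0 and 31.5 TPM in UN and at 681, 698 and 734 TPM in UH (log2 fold change 4.24, SE 0.159, adjusted p = 1.26e-08). Pfkp, a phosphofructokinase gene at the committed step of glycolysis, rose by 3.96, the aldolase gene Aldoc by 4.44 and the enolase gene Eno2 by 3.88. Gapdh became the most abundant transcript of UH cells, at 18689, 19317 and 18351 TPM against 3824, 3335 and 3775 TPM in UN. The list as a whole took 1.06% ± 0.0226 of all TPM in UN and 4.70% ± 0.102 in UH (SD, n = 3 each), which do not overlap (exact permutation test, two-sided p = 0.1, the smallest that 3 against 3 libraries can give; adjusted p = 0.122 over 71 lists). The shares of selected lists, glycolysis among them, are plotted below, and the selection is not a ranking by share.

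**Figure D2:**
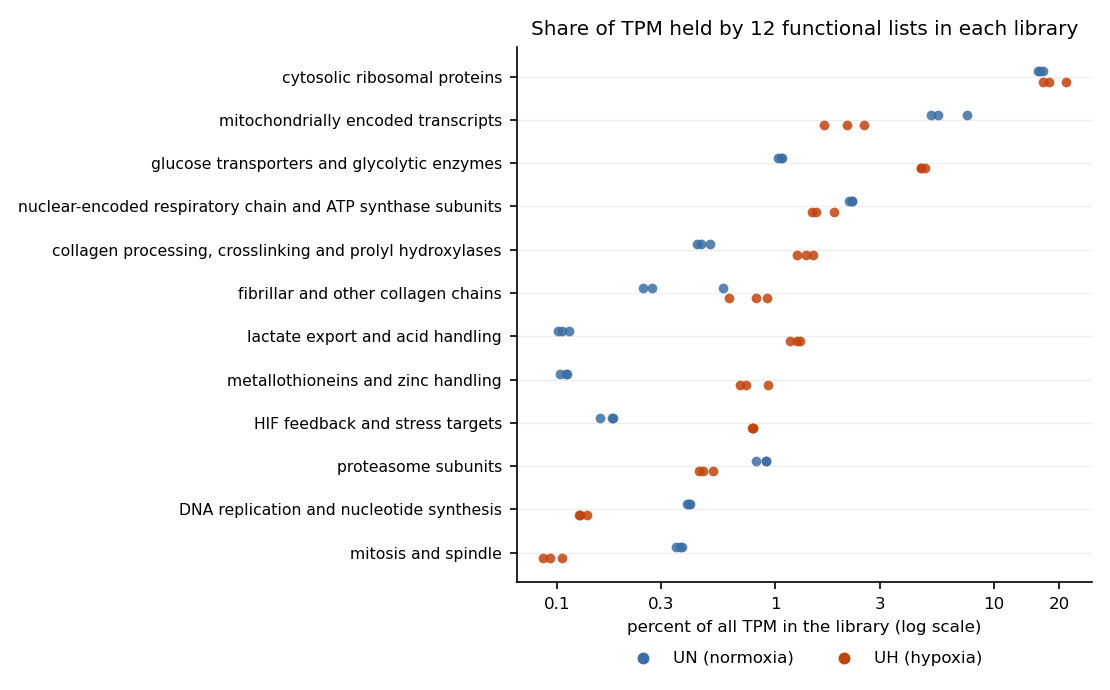
Share of all TPM (percent, log scale) taken by 12 gene lists, with each point 1 of the 3 UN or 3 UH libraries. Glycolysis lies at 1.03 to 1.08% in the 3 UN libraries and at 4.63 to 4.82% in the 3 UH libraries, and mitochondrially encoded transcripts lie at 5.18 to 7.55% and at 1.67 to 2.53%.

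Of 21 tested genes of glycogen metabolism 8 rose, 1 fell and 12 were not called. At any fold 11 were higher and 6 lower. The 1 fall, of the phosphorylase gene Pygb, was not called after median-of-ratios scaling. Gbe1, the branching enzyme of glycogen synthesis, stood at 6.09, 5.07 and 4.59 TPM in UN and at 179, 214 and 254 TPM in UH (5.11). Gys1, the muscle-type glycogen synthase gene, was at 44.6, 49.0 and 51.6 TPM in UN and at 365, 464 and 454 TPM in UH (3.11), so the groups did not overlap for either gene. Enzymes of synthesis and of breakdown both moved, since the phosphorylase gene Pygl rose by 3.58 on the log2 scale.

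The fate of pyruvate is set by the pyruvate dehydrogenase complex and the kinases that switch it off. Pdk1 stood at 18.9, 23.7 and 25.6 TPM in UN and at 94.5, 113 and 151 TPM in UH (2.33), and the kinase genes Pdk3 (1.40) and Pdk4 (1.31) also rose. Pdk2 did not pass the test (−0.58). The complex's own subunit gene Pdhx fell by 1.73 on the log2 scale, the only one of the 14 tested genes of this list past the limit of 2-fold downwards. At any fold 9 of the 14 were lower, among them Dlat (−0.91) and Dld (−0.82). Among 14 genes of lactate export and acid handling 4 rose and 4 fell. Bsg encodes basigin, the chaperone of lactate transporters, and stood at 888, 600 and 632 TPM in UN and at 12232, 12524 and 11226 TPM in UH (4.10). The exporter gene Slc16a3 (4.36) and the membrane carbonic anhydrase gene Car12 (4.06, and 3.35 without UN replicate 1) rose too. Embigin (Emb, −2.34), the other chaperone of these transporters, and the cytosolic carbonic anhydrase genes Car2 (−2.29) and Car13 (−1.93) fell.

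The mRNAs of the HIF alpha subunits themselves were not called in either direction. Hif1a stood at 132, 108 and 114 TPM in UN and at 67.6, 107 and 135 TPM in UH, which overlap (−0.24, SE 0.225, adjusted p = 0.42). Epas1, which encodes HIF2 alpha, averaged 5.83 TPM in UN and 3.42 TPM in UH (−0.58, adjusted p = 0.0865). In the list of HIF subunits and oxygen-sensing enzymes, which includes both genes, 4 of 12 tested genes rose and 0 fell. Egln1 was at 38.2, 35.2 and 36.4 TPM in UN and at 281, 332 and 335 TPM in UH (3.07, SE 0.0873, adjusted p = 2.92e-09). Egln3 (2.52), the ligase gene Vhl (2.18) and Siah2 (1.27), whose product degrades EGLN enzymes, also rose without overlap. Egln2 averaged 67.3 TPM in both groups.

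A list of 28 textbook feedback and stress targets of HIF had 21 members higher and 0 lower (23 and 0 after median-of-ratios scaling). Ankrd37 stood at 5.38, 4.7 and 5.59 TPM in UN and at 232, 203 and 183 TPM in UH (5.05). The list of mitophagy, autophagy and BCL2 family genes gave 3 higher and 3 lower of 28 (3 and 1 after median-of-ratios scaling). From that list the mitophagy receptor gene Bnip3 was at 43.3, 57.2 and 58.1 TPM in UN and at 825, 808 and 951 TPM in UH (4.01). Its relative Bnip3l rose by 2.57. The HIF target list and the circadian clock list share the transcriptional repressor gene Bhlhe41 (3.82). In the clock list, which also holds the repressor genes Ciart (3.15) and Bhlhe40 (2.93), 7 of 21 genes rose and 1 fell. In the remaining part of the mitophagy and BCL2 list the autophagy gene Atg9b rose (3.93), and the BCL2 family genes Bid (−1.44), Bmf (−1.32) and Bcl2l1 (−1.0) fell, the last 2 without a call after median-of-ratios scaling. Bcl2l1 was at the fold limit, and its call was lost without UN replicate 1 or 2 or without UH replicate 2 or 3. Oxygen-dependent histone and nucleic acid demethylases gave 5 higher and 1 lower of 23, among them Jmjd6 (2.34), the H3K9 demethylase gene Kdm3a (1.80) and the RNA demethylase gene Alkbh5 (1.36).

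The core letters of the hypoxia response element were sought in RefSeq promoter windows of GRCm38.p6 (250 bases before to 50 after a start), which were matched for 11722 of the 18909 tested genes (62.0%). Windows were found for 700 of the 1032 higher genes and 1583 of the 2222 lower ones, under 80% of each set, so the shares of all called genes with the motif are void. For the 22 glycolysis genes, all with a window, 68.2% held ACGTG or GCGTG on either strand, against 60.5% of all 11722 windows. The letters ACGTG alone, chosen after the values were seen, were in 45.5% of glycolysis windows and in 61.1% of those of 18 glycogen genes, against 24.6% of all. Among the lists this share ran from 0% for endothelial markers to the 61.1% of glycogen genes. The glycolysis value was not particular to that list, since endoplasmic reticulum chaperones had 45.2% and splicing factors 38.6%. A match describes letters and is not a site shown to be bound. The 250 upstream bases of 4 genes that rose are shown because they hold these letters at different densities, 5′ to 3′ on the gene's strand, with ACGTG or its reverse complement CACGT in capitals.
Ankrd37 (chr8:45999851-46000100, minus strand): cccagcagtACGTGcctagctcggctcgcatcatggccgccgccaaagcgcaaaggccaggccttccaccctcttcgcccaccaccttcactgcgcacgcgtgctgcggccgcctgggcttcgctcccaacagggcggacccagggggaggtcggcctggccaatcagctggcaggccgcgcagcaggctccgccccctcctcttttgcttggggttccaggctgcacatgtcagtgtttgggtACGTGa
Bnip3 (chr7:138909507-138909756, minus strand): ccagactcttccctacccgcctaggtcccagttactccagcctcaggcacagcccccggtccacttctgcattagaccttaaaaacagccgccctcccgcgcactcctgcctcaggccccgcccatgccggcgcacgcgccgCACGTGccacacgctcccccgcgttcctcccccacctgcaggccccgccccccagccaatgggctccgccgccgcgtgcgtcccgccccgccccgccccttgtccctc
Pgk1 (chrX:106186850-106187099, plus strand): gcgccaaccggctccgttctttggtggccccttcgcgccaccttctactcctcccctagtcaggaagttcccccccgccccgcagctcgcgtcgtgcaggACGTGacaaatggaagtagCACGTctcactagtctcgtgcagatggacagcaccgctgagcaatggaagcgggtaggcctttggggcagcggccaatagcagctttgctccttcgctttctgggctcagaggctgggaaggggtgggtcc
Ldha (chr7:46845554-46845803, plus strand): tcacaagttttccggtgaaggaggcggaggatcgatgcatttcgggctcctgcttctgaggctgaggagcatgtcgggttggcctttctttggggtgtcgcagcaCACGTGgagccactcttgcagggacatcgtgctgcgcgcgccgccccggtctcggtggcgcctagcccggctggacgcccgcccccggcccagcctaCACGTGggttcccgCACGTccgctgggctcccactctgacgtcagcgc

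The 4 windows held 2, 2, 2 and 5 matches in that order, and in Bnip3 and in both paired matches of Ldha the letters of opposite strands overlap as CACGTG. Pgk1 (phosphoglycerate kinase, chosen with Ldha after the values were seen) stood at 499, 538 and 550 TPM in UN and at 2970, 2631 and 2789 TPM in UH, and Ldha (lactate dehydrogenase A) at 915, 876 and 976 TPM and at 3362, 3061 and 3088 TPM. The number of matches did not order the rises, which were 5.05 for Ankrd37, 4.01 for Bnip3, 2.40 for Pgk1 and 1.78 for Ldha.

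Metallothioneins are small cysteine-rich proteins that bind zinc and copper. Mt1 stood at 235, 184 and 177 TPM in UN and at 6046, 4574 and 4138 TPM in UH (4.62, SE 0.264, adjusted p = 1.55e-07). Mt2 was at 35.7, 50.8 and 39.5 TPM in UN and at 2307, 1837 and 1767 TPM in UH (5.52), with no overlap for either gene. An annotated antisense gene, Gm45774, overlaps Mt2, and how strand was used in counting is not given in the sources used here. Of 24 tested genes of zinc handling 3 were higher, namely Mt1, Mt2 and the importer gene Slc39a6 (1.08, not called without UN replicate 2 or UH replicate 3), and 1, Slc39a4, was lower (−1.63). The upstream bases of Mt1 and Mt2 are shown with 1 form of the core of the metal response element, TGCACNC on either strand, in capitals. Other forms of that core were neither marked nor counted. The letters TGCACNC were in 28.6% of the 21 zinc-list windows and in 12.9% of all windows. Among the lists this share ran from 0% for lactate export and acid handling to 36.8% for secreted angiogenic factors. The zinc value was therefore not particular to that list.
Mt1 (chr8:94178839-94179088, plus strand): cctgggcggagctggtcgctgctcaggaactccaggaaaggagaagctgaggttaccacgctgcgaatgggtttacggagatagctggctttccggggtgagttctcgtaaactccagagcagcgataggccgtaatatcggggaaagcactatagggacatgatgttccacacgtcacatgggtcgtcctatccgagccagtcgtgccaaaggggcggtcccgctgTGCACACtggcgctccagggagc
Mt2 (chr8:94172368-94172617, plus strand): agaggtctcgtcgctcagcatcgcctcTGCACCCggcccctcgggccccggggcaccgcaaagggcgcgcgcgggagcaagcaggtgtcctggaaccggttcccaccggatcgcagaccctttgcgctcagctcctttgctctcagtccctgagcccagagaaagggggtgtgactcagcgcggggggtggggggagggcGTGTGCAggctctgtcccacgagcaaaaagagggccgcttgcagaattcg

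Transcripts encoded by the mitochondrial genome held a smaller share of TPM in every UH library than in any UN library. That share was 7.55, 5.18 and 5.56% in UN and 1.67, 2.13 and 2.53% in UH. Of 27 tested mitochondrially encoded genes 10 fell and 0 rose. The ATP synthase gene mt-Atp8 stood at 15318, 13903 and 9401 TPM in UN and at 1608, 3425 and 3785 TPM in UH (−2.19), and the cytochrome oxidase gene mt-Co1 at 12476, 9032 and 11253 TPM and at 2821, 3451 and 5104 TPM (−1.56). For both genes every UN library lay above every UH library. Copies of mitochondrial sequence in the nuclear genome also take such reads, and the pseudogenes Gm10925 (−3.46, not called without UN replicate 3 and, at −2.15, without UH replicate 2) and Gm28437 (−1.99) fell while Gm28661 (−0.60) did not pass the test. Assignment of reads between mitochondrial genes and these copies is uncertain.

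Nuclear genes for mitochondrial proteins were seldom past the fold limit. Of 82 respiratory chain and ATP synthase subunits 3 rose and 10 fell, a share near the 11.8% of all tested genes, with a median of −0.59. With the fold limit dropped 62 were lower and 7 higher, where 33.5% of all genes were lower and 13.0% higher. Median-of-ratios scaling gave 3 higher and 2 lower, which turns the balance, where 6.47% of all genes were lower. Leaving out UN replicate 1 or UH replicate 1 gave 16 lower. Mitochondrial ribosomal proteins gave 14 lower and 0 higher of 76, and 2 lower under that scaling. Respiratory chain assembly factors gave 6 lower of 39. A pair of paralogs moved in opposite directions. Ndufa4 encodes a subunit of cytochrome oxidase and was at 452, 428 and 417 TPM in UN and at 173, 129 and 129 TPM in UH (−1.60, SE 0.127, adjusted p = 1.76e-06). Its paralog Ndufa4l2 was at 0.324, 0 and 0.17 TPM in UN and at 11.7, 10.2 and 11.3 TPM in UH (3.38). The oxidase isoform gene Cox7a1 (3.24), Ndufv3 (1.89) and the matrix protease gene Lonp1 (1.86) also rose, the first of them from 0 to 1.90 TPM in UN to 7.5 to 23 TPM in UH. In the citric acid cycle list 8 of 22 fell, including the isocitrate dehydrogenase genes Idh1 (−1.85), Idh3a (−1.82) and Idh2 (−1.51), and the malic enzyme gene Me2 rose (2.45).

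DNA replication and mitosis had the largest shares of lower members among the 71 lists. Of 62 replication and nucleotide synthesis genes 52 fell and 0 rose, with a median of −1.78, and 38 were lower after median-of-ratios scaling. Rrm2, the regulated subunit of ribonucleotide reductase, stood at 85.2, 106 and 108 TPM in UN and at 9.02, 9.48 and 10.3 TPM in UH (−3.24, SE 0.165, adjusted p = 7.21e-08). Mcm2, part of the replicative helicase, was at 72.8, 80.1 and 73.4 TPM in UN and at 8.18, 10.7 and 10.03 TPM in UH (−2.85). Mitosis was more uniform still, with 57 of 58 genes lower. The exception, the phosphatase gene Cdc25b, named because it alone did not pass, averaged 29.7 TPM in UN and 15.8 TPM in UH (−0.88). The kinetochore gene Nuf2 was at 59.7, 59.6 and 62.8 TPM in UN and at 7.42, 8.68 and 9.01 TPM in UH (−2.72), and the mitotic kinase gene Plk1 at 93.3, 83.2 and 79.7 TPM and at 11.5, 12.8 and 15.6 TPM (−2.60). DNA repair genes gave 25 lower and 0 higher of 50, with the nuclease gene Exo1 at −2.32.

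Inhibitors of the cell cycle moved apart. Cdkn1a, which encodes p21, stood at 86.5, 32.6 and 36.6 TPM in UN and at 530, 545 and 574 TPM in UH (3.52, SE 0.283, adjusted p = 1.86e-06), and Cdkn1b, which encodes p27, rose by 1.05, a call lost without UN replicate 1 or without UH replicate 2 or 3. Cdkn2a (−1.80), Cdkn2b (−1.48) and Cdkn2c (−1.47) fell. Myc was not called (136 and 135 TPM), but its antagonists Mxi1 (2.70) and Mxd1 (1.72) rose and Mxd3 fell (−1.78). The β-catenin target Ccnd1, cyclin D1, was at 186, 152 and 153 TPM in UN and at 29.4, 34.2 and 35.1 TPM in UH (−2.28). Replication-dependent histone genes gave 16 higher and 1 lower of 64. Hist1h4h stood at 5.79, 1.36 and 0.628 TPM in UN and at 64.3, 38.0 and 33.9 TPM in UH (3.91, and 4.51 without UN replicate 1), and Hist2h2aa2 at 20.5, 16.9 and 14.1 TPM and at 196, 158 and 135 TPM (3.17). These mRNAs normally end in a stem-loop without a poly(A) tail, the libraries were made from isolated mRNA, and near-identical histone copies share reads, so single members are uncertain.

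**Figure D3:**
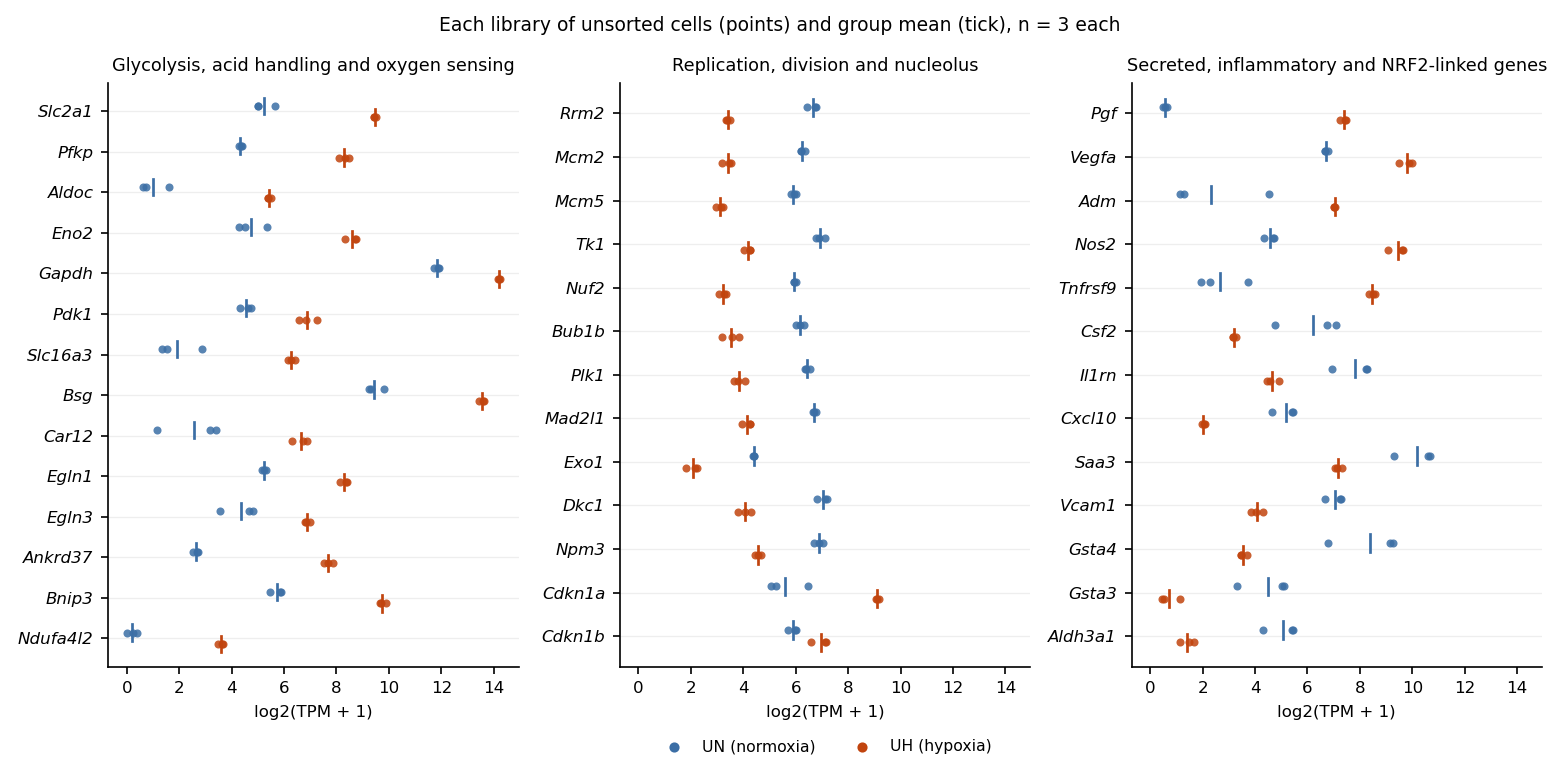
Level of selected genes as log2(TPM + 1), with 1 point per UN or UH library and a tick at the mean of each group (n = 3). Slc2a1 moves from 31.0 to 48.8 TPM in UN to 681 to 734 TPM in UH and Rrm2 from 85.2 to 108 TPM to 9.02 to 10.3 TPM, and for Gsta4 1 UN library, at 110 TPM, lies below the other UN libraries and above every UH library.

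Genes of ribosome production and those of the ribosome itself differed in their counts. Of 50 ribosome biogenesis and RNA polymerase I genes 27 fell and 0 rose (median −1.12). Dkc1, the pseudouridine synthase dyskerin, stood at 111, 145 and 137 TPM in UN and at 12.9, 15.5 and 18.5 TPM in UH (−2.99), and the nucleolar chaperone gene Npm3 fell by 2.32 on the log2 scale. Of 210 cytosolic ribosomal protein genes and their numbered pseudogenes 0 rose and 2, both pseudogenes (Rpl27-ps3 and Rpl18-ps2), fell. Leaving out 1 library gave 4 lower without UN replicate 2 or UH replicate 1 and 5 without UH replicate 2. Translation factors gave 4 higher and 6 lower of 61, a split that turned to 5 higher and 0 lower after median-of-ratios scaling. Eif4ebp1, the repressor of cap-dependent translation (1.96), and Eef2 (1.18) were among those higher. Splicing factors gave 1 higher and 10 lower of 51, and 3 higher and 2 lower under that scaling. The lower ones numbered 5 without UH replicate 1 and 17 without UH replicate 3. The cold-inducible RNA-binding protein gene Cirbp was the higher one (1.03, not called without UH replicate 2).

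The integrated stress response leaned upward, with 9 of 33 genes higher and 0 lower. Trib3, a pseudokinase and feedback inhibitor, stood at 11.3, 11.4 and 11.5 TPM in UN and at 89.0, 93.3 and 80.3 TPM in UH (2.83, SE 0.196, adjusted p = 6.49e-07), and Nupr1 rose by 3.19. Atf4, whose protein drives the pathway, averaged 241 and 404 TPM, a difference without overlap that did not pass the fold limit (0.74). In the endoplasmic reticulum list 5 of 42 rose and 2 fell. The higher genes included Ero1l, the protein disulfide isomerase gene P4hb (1144 to 6834 TPM, 2.58) and the chaperone gene Hsp90b1 (1.61), and the chaperone gene Hyou1 fell (−1.16, not called after median-of-ratios scaling). Cytosolic heat shock proteins gave 1 higher, the small heat shock protein gene Cryab (2.91), and 7 lower of 33. Proteasome subunits gave 15 lower and 0 higher of 46, with Psma4 at −1.63. With the fold limit dropped 43 of the 46 were lower, but only 4 passed both limits after median-of-ratios scaling.

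Lipid genes divided by function. Of 26 cholesterol synthesis and uptake genes 16 fell and 1 rose (median −1.35). Cyp51, the lanosterol demethylase, an enzyme that uses oxygen, was at 40.6, 30.9 and 31.5 TPM in UN and at 5.29, 5.14 and 5.51 TPM in UH (−2.47). Insig1, a sterol-sensing brake on the pathway, fell (−2.15) and its paralog Insig2 rose (1.53). Sqle, the squalene epoxidase gene, averaged 39.8 and 76.4 TPM and was not called (0.96), though it was after median-of-ratios scaling. Fatty acid synthesis gave 6 lower, such as Fasn (−1.56), and 1 higher, Acss2 (1.18, not called without UN replicate 1), of 19. Fatty acid oxidation gave 6 lower and 0 higher of 49, a share of lower genes near the 11.8% of all tested genes. It gave 11 lower without UN replicate 1, and 2 lower and 1 higher after median-of-ratios scaling. Lipid droplet and triglyceride genes gave 6 higher and 1 lower of 27. Hilpda, an inhibitor of triglyceride lipolysis, was at 11.9, 13.7 and 13.3 TPM in UN and at 304, 244 and 248 TPM in UH (4.25), and the lipoprotein receptor gene Vldlr rose by 3.86.

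Of 22 serine, glycine and one-carbon genes 9 fell and 2 rose. Both risers, Aldh1l2 (4.44) and Mthfd1l (2.93), encode mitochondrial folate enzymes. Aldh1l2 stood at 22.6, 6.39 and 7.13 TPM in UN and at 161, 273 and 329 TPM in UH. The cytosolic folate enzyme gene Shmt1 fell (−2.44), as did Ahcy (−2.08) and the mitochondrial glycine cleavage genes Gcsh (−2.07) and Gldc (−2.0). The glutaminase gene Gls2 rose from 1.17, 1.95 and 1.77 TPM to 76.5, 81.9 and 77.9 TPM (4.93), and the glutamine transporter gene Slc38a3 rose by 2.97, while the glutamate transporter gene Slc1a3 fell (−3.22).

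Of 25 secreted angiogenic factors 9 were higher, 3 were lower and 13 were not called. Vegfa, the main endothelial growth factor, stood at 100, 99.6 and 109 TPM in UN and at 716, 939 and 1024 TPM in UH (3.09, SE 0.213, adjusted p = 6.38e-07). The vasodilator peptide genes Adm (4.71) and Adm2 (4.81) rose, Adm from 22.2, 1.45 and 1.22 TPM to 132, 128 and 130 TPM. The value for Adm was 5.81 without UN replicate 1 and 4.12 without UN replicate 3. Angpt1 (−2.41), the ligand of Tie2, fell, as did Angpt4 (−2.42) and the hepatocyte growth factor gene Hgf (−2.24). Inhibitors of angiogenesis gave 3 higher and 4 lower of 16. Serpinf1 (2.26), the decoy-forming receptor gene Flt1 (2.78) and Timp3 (3.12), at 236, 202 and 196 TPM in UN and at 1410, 2000.1 and 2205 TPM in UH, were higher, and Cxcl10 was lower (−3.14). Tek itself averaged 0.133 and 0.156 TPM and was not called (0.03, adjusted p = 0.88). Of 14 endothelial markers with a mean of at least 0.1 TPM, Flt1, Plvap (1.16) and Eng (1.35) were higher, and Eng overlapped through UN replicate 1, at 41.4 TPM against 8.88 and 8.67 TPM in the other UN libraries and 34.8 to 43.6 TPM in UH (2.06 without that library). The Eng call was lost without UN replicate 2 or 3 and without UH replicate 2 or 3.

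**Figure D4:**
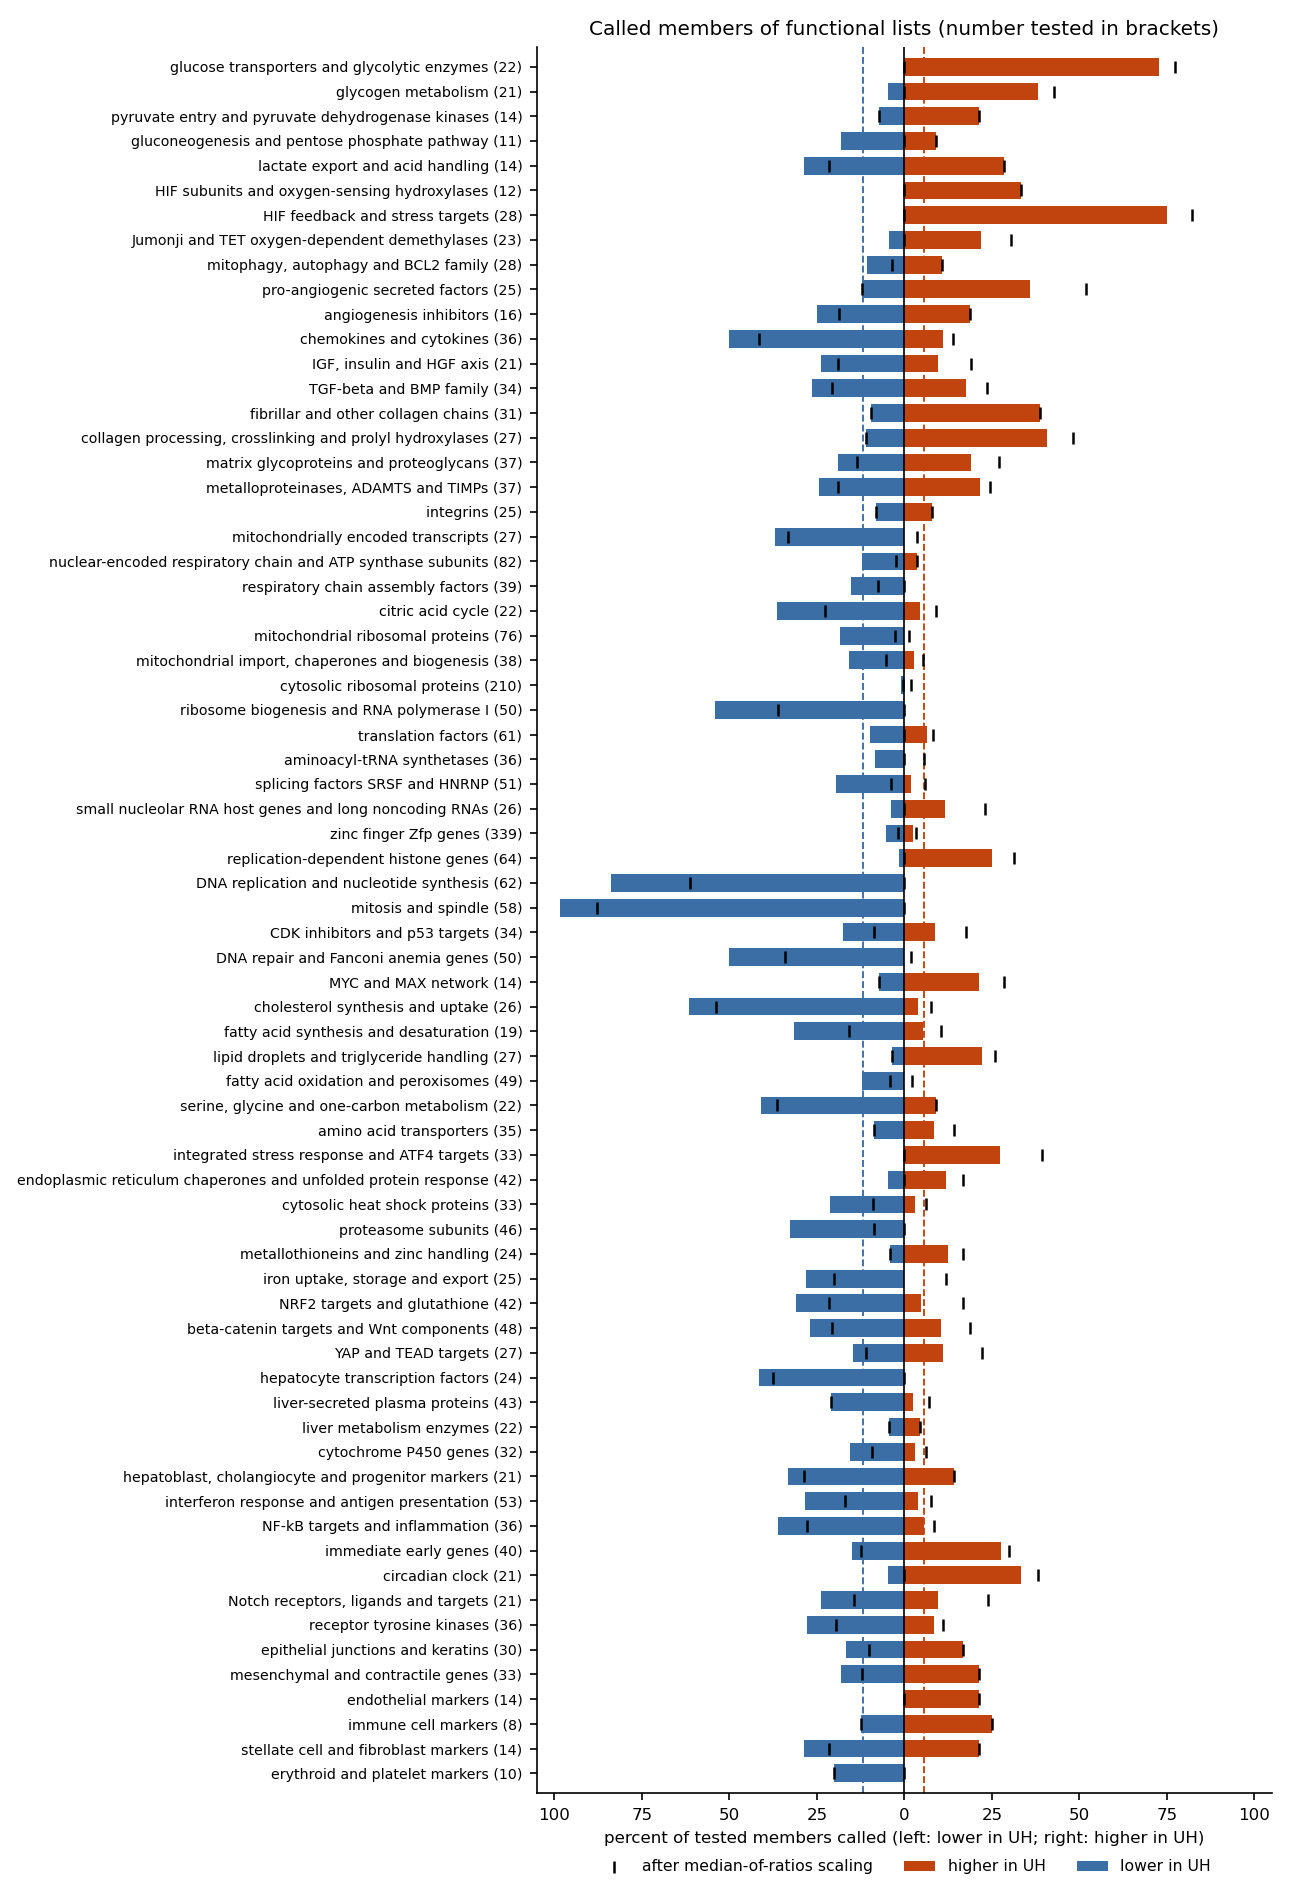
Percent of the tested members of the gene lists (1 of the 71 is not shown) called higher (right) and lower (left) in UH against UN, with black ticks for the same after median-of-ratios scaling and dashed lines at the 5.46% and 11.8% of all tested genes. Glycolysis (16 of 22 higher) and HIF targets (21 of 28 higher) lie farthest to the right, and mitosis (57 of 58 lower) and DNA replication (52 of 62 lower) farthest to the left.

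Several matrix genes were highest among UN libraries in replicate 1. Collagen chains gave 12 higher and 3 lower of 31. Col1a1 stood at 1186, 499 and 428 TPM in UN and at 2478, 3556 and 3119 TPM in UH (2.25) without overlap. Col3a1 stood at 1960, 222 and 173 TPM in UN and at 1273, 2144 and 1824 TPM in UH (2.01, and 3.12 without UN replicate 1), where UN replicate 1 lies within the UH range. Its call was lost when any of UN replicates 2 and 3 and UH replicates 2 and 3 was left out. Col6a1 (−1.44) and Col6a2 (−2.16) fell, and Col16a1 rose (2.76). Enzymes of collagen processing gave 11 higher and 3 lower of 27. Among them the lysyl oxidase gene Loxl2 was at 70.1, 16.3 and 14.8 TPM in UN and at 378, 507 and 553 TPM in UH (4.14, and 4.84 without UN replicate 1), and the collagen hydroxylase genes Plod2 (3.63), P4ha2 (3.18) and P4ha1 (3.07) rose. Metalloproteinases, ADAMTS proteases and TIMPs gave 8 higher and 9 lower of 37, including Timp3 and, as falls, Adamts16 (−3.89, and −4.55 without UN replicate 1) and Mmp9 (−3.04). Dcn fell (−1.32) from 349, 86.2 and 81.3 TPM to 49.9, 50.4 and 61.0 TPM, a call lost after median-of-ratios scaling and, at −0.64, without UN replicate 1, and lost as well without UH replicate 1 or 2.

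Growth factor and receptor genes divided too. In the TGF-β and BMP list 6 of 34 rose and 9 fell, and the split was 8 and 7 after median-of-ratios scaling. The activin inhibitor gene Fstl3 stood at 22.3, 5.15 and 4.53 TPM in UN and at 310, 327 and 311 TPM in UH (5.10, and 5.76 without UN replicate 1), the inhibin subunit gene Inha rose by 3.03, and Tgfb3 (−2.46), Tgfb2 (−1.90) and the BMP target Id3 (−2.87) fell. Igf1 was at 38.5, 35.1 and 35 TPM in UN and at 4.66, 4.57 and 5.23 TPM in UH (−2.68), while Igfbp3 rose (2.11). Receptor tyrosine kinases gave 3 higher and 10 lower of 36, with Fgfr2 (−2.56) and Pdgfra (−2.24) falling most. In the β-catenin and Wnt list 5 of 48 rose, including Lrp5 (1.5), and 13 fell, including the transcription factor gene Tcf7 (−2.18) and the secreted inhibitor genes Notum (−1.93) and Sfrp2 (−1.83), at −2.62 and −2.51 without UN replicate 1. After median-of-ratios scaling it gave 9 higher and 10 lower. Lists of YAP targets (3 higher and 4 lower of 27), Notch genes (2 and 5 of 21) and zinc finger genes (8 and 18 of 339) changed the sign of their balance under that scaling. The lower zinc finger genes numbered 30 without UN replicate 1 or UH replicate 3, and the Notch genes 4 higher without UH replicate 1 and 3 lower without UN replicate 2 or 3.

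Of 36 chemokines and cytokines 18 were lower, 4 were higher and 14 were not called. Cxcl1, a neutrophil attractant, stood at 1154, 1586 and 1852 TPM in UN and at 269, 286 and 285 TPM in UH (−2.42), and osteopontin (Spp1) at 2695, 3011 and 2789 TPM and at 645, 588 and 688 TPM (−2.14). Il1rn (−3.18), Csf2 (−3.0, and −3.73 without UN replicate 1) and Ccl2 (−1.94) fell as well. The higher ones were Mif (1.77), Tnfsf9 (1.70), the ligand of Tnfrsf9, Il11 (1.31) and Il33 (1.03, not called without UN replicate 2 or 3 or UH replicate 3). In the NF-kB list 13 of 36 fell, with the acute-phase gene Saa3 at 633, 1615 and 1539 TPM in UN and at 158, 139 and 132 TPM in UH (−3.02), and 2 rose. Those were Ptges (2.04) and Nos2, the inducible nitric oxide synthase, at 19.3, 24.6 and 25.2 TPM in UN and at 531, 780 and 802 TPM in UH (4.86, SE 0.224, adjusted p = 3.82e-08). Interferon and antigen presentation genes gave 2 higher, both MHC class I genes (H2-T23, 2.02, and H2-K1, 1.14, the latter not called without UN replicate 1), and 15 lower of 53. Median-of-ratios scaling gave 4 higher and 9 lower for that list, and its share of TPM averaged 0.374% in UN and 0.379% in UH. Immediate early genes gave 11 higher, such as Fosl1 (2.49), Dusp1 (2.19) and Klf4 (2.06), and 6 lower, such as Zfp36 (−2.14), Egr1 (−2.16) and Fos (−1.96), of 40.

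NRF2 is mutated in these cells in both groups, and its targets gave 2 higher and 13 lower of 42. Without UN replicate 1 the count was 5 higher and 15 lower, without UH replicate 1 it was 5 higher, and after median-of-ratios scaling 7 and 9. The falls were led by Gsta4, Gsta3 (−3.77), Aldh3a1 (−3.63) and Gsta1 (−2.88), which are transferases and a dehydrogenase of detoxification. Glutathione transferases of one class are close in sequence, so reads may be split between Gsta1 and Gsta3. Without UN replicate 1 the log2 fold change was −4.36 for Gsta3 and −3.82 for Gsta1. The risers were Ugdh (2.03) and Ephx1 (1.41). Iron genes gave 7 lower and 0 higher of 25, and 5 lower and 3 higher after median-of-ratios scaling. Without UN replicate 1 or UH replicate 1 the iron list had 1 higher gene. Ferritin heavy chain, Fth1, was lower, at 5562, 4925 and 5884 TPM in UN and at 2136, 1883 and 2022 TPM in UH (−1.44).

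Of 24 hepatocyte transcription factors 10 fell and 0 rose. Hnf4a, a master regulator of hepatocytes, stood at 1.7, 4.86 and 4.98 TPM in UN and at 0.225, 0.101 and 0.156 TPM in UH (−1.97, SE 0.249, adjusted p = 5.42e-05), and Cebpa fell by 1.93 on the log2 scale. Plasma protein genes gave 9 lower and 1 higher of 43, the higher one being the retinol carrier gene Rbp4 (1.54). Hepatoblast, cholangiocyte and progenitor markers gave 3 higher and 7 lower of 21, with Bex4 at −2.06. Their share of TPM averaged 0.370% in UN and 0.180% in UH. The biliary keratin gene Krt19 rose from 29.4, 83.4 and 73.2 TPM to 513, 506 and 424 TPM (3.06). Of the other biliary markers Sox9, at 28.5, 36.5 and 35.3 TPM in UN and at 15.3, 21 and 22.6 TPM in UH, was not called (−0.75, adjusted p = 0.0607), nor was Krt7 (2.07 and 2.67 TPM). Epcam stayed at or under 0.310 TPM in all 6 libraries. Epithelial junction and keratin genes gave 5 higher and 5 lower of 30, and 5 and 3 after median-of-ratios scaling. E-cadherin (Cdh1, −1.98) and claudin 2 (Cldn2, −2.39) were among those that fell. The mesenchymal and contractile list gave 7 higher and 6 lower of 33, and 3 higher without UN replicate 2 or 3. Among mesenchymal genes vimentin (Vim) rose from 1501, 1409 and 1278 TPM to 5918, 6188 and 5576 TPM (2.08) and N-cadherin (Cdh2) by 1.45, whereas Snai2 (−1.91) and Cdh11 (−1.84) fell.

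The response of unsorted cells was set beside that of sorted cells by testing the difference between them, (SH − SN) − (UH − UN). This difference was called for 412 genes that responded less positively in sorted cells (2.18% of those tested) and 1527 that responded more positively (8.08%). Of the 1032 genes higher in UH, 267 had a less positive and 26 a more positive response in sorted cells. Of the 2222 genes lower in UH, 664 had a more positive and 16 a less positive one. These genes were picked by their UH − UN change, which enters the tested difference with the opposite sign. Both splits were therefore tilted beforehand and are no support for a weaker response in sorted cells. Median-of-ratios scaling gave 779 less positive and 906 more positive genes in all, and leaving out UN replicate 1 gave 636 less positive ones.

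Mitosis had the largest share of called differences among the 71 lists. All 58 genes were lower at an adjusted p under 0.05 in UH at any fold and 57 at a fold above 2, against 10 in SH, and the difference itself was called for 47 of them. Plk1 had a log2 fold change of −2.60 in unsorted and −0.72 in sorted cells (difference 1.89, adjusted p = 4.3e-05). Of 62 replication genes 52 were lower in unsorted and 42 in sorted cells, and the difference was called for 6, all more positive in sorted cells, where 8.08% of all tested genes were. Glycolysis gave 16 higher in unsorted and 17 in sorted cells, with 2 called differences, and HIF targets 21 and 18, with 5. Pgf had log2 fold changes of 6.83 and 1.33 (difference −5.50, adjusted p = 3.6e-06). Slc16a3 (4.36 and 0.47), Ndufa4l2 (3.38 and 0.59) and Timp3 (3.12 and 0.49) also had called differences. Bnip3 (4.01 and 3.98) did not, with a difference of −0.03 (SE 0.228), nor did Ero1l (5.51 and 5.50), with a difference of −0.02 (SE 0.296), or Vegfa (3.09 and 3.00), with a difference of −0.09 (SE 0.301).

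**Figure D5:**
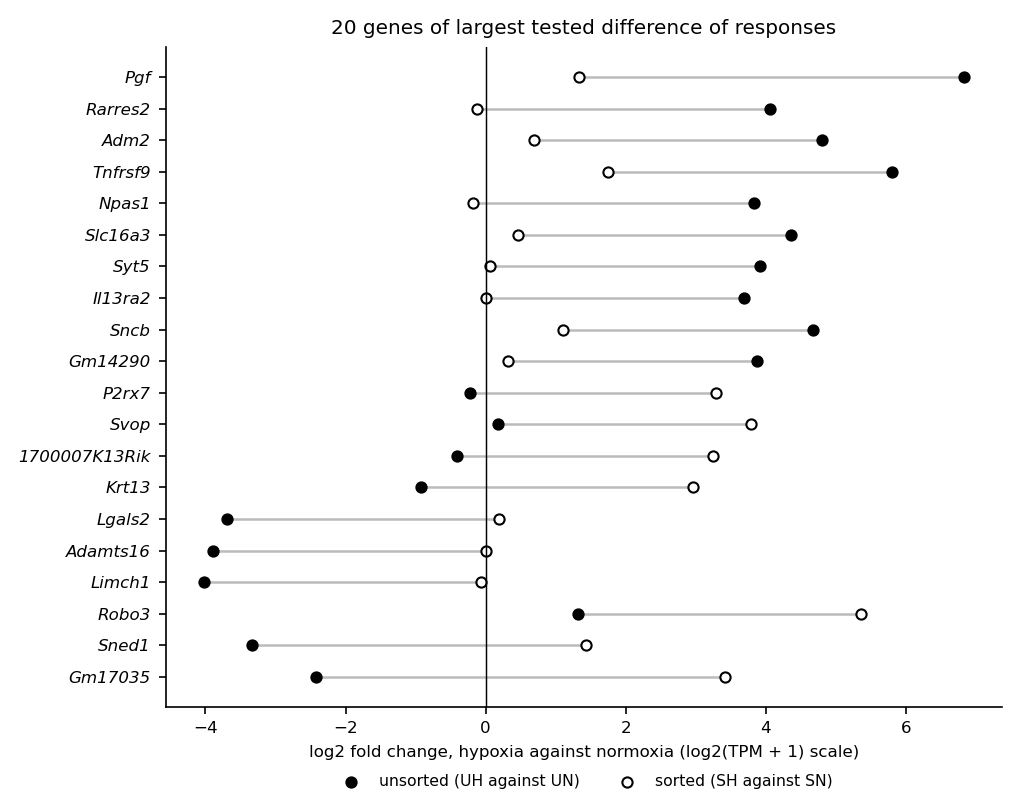
Log2 fold change between hypoxia and normoxia in unsorted cells (filled points) and in sorted cells (open points), each of 3 against 3 libraries, for the 20 genes with the largest called difference between them. Pgf lies at 6.83 in unsorted and 1.33 in sorted cells, and Adamts16 at −3.89 and 0.01.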

How the data were processed

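RNA was extracted from BN1-Tie2-EGFP cells with a RIN above 8, libraries were made with the Illumina Stranded mRNA kit, and paired-end reads were sequenced on an AVITI instrument. The authors processed the reads with nf-core/rnaseq 3.12.0 (mm10 per the submitters' processing notes) and deposited 1 table of TPM per gene, corrected for transcript length and scaled to 1000000 per library, with no further scaling between libraries. Such values are relative, so a rise of abundant transcripts lowers the TPM of all others. TPM keep no read counts, so the depth of each library is unknown and no counting intervals are given. Groups were taken from the labels, which do not say whether replicates were separate cultures, so p-values measure only the spread between these samples. No batch or date is labelled.

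TPM were analysed as log2(TPM + 1), a scale that understates the change of low genes, for genes with a mean of at least 0.1 TPM. A mean for each of the 4 groups was fitted over all 12 libraries with limma 3.58.1 in R 4.3.3 (empirical Bayes with a trend), and p-values were adjusted by Benjamini-Hochberg over all 18909 genes. All adjusted p-values of genes are from these limma fits, and fold changes are differences of mean log2(TPM + 1). Shares of TPM were compared by exact two-sided permutation, whose smallest p is 0.1 here. Coordinates are from GENCODE M21 (GRCm38, the same assembly as mm10), in which 98.8% of identifiers were found, and promoters are from RefSeq. Python 3.11.15, pandas 2.3.3, numpy 2.4.6, scipy 1.17.1 and matplotlib 3.10.9 were used. The pipeline was tested on simulated data.

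The 71 lists and the genes named were chosen with earlier results of these data known, and the lists are textbook functions. Genes were named by rule, as the largest called changes without overlap over all genes (15 each way) and in each list (4 each way), members of lists of 15 or fewer genes, genes near 0 in 1 group, the 10 largest differences of responses each way and the 10 most abundant transcripts of each group. Lack of overlap was a condition for genes named as the largest changes, so it is no separate support for them. Pgk1, Ldha, Sqle, Atf4, Cdc25b, Ccl2, Spp1, Mif, Hsp90b1, Rpl27-ps3 and Gm28437 were named after their values were seen. The other settings were 0.1 as the pseudocount, no filter on level, a mean of at least 1 TPM, median-of-ratios scaling, quantile normalization, rescaling without the 20 top genes or without mitochondrially encoded genes, a replicate block, the 2 groups alone, moderation without a trend, any fold, and each replicate left out. A few genes and 1 list are not reported here. Read-level data were not analysed here.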

Additional observations from a re-analysis of the deposited data

Results flagged for a closer look

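Hypoxia changed genes differently in sorted than in unsorted cells, by a limma test of the difference (SH − SN) − (UH − UN), for 412 genes that were less positive and 1527 that were more positive in sorted cells. The number of less positive genes was 636 without UN replicate 1. The difference in log2 fold change was −5.50 for Pgf, −4.18 for Rarres2, which encodes the chemoattractant chemerin, −4.12 for Adm2, −4.06 for Tnfrsf9 and −4.0 for Npas1. It was −3.89 for the lactate exporter gene Slc16a3, −3.86 for Syt5, −3.69 for Il13ra2, −3.56 for Sncb and −3.56 for Gm14290. These genes rose in unsorted cells, and 5 of them, Rarres2, Npas1, Syt5, Il13ra2 and Gm14290, had log2 fold changes between −0.18 and 0.32 in sorted cells.

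In the other direction the difference was 3.50 for the ATP-gated channel gene P2rx7, 3.61 for Svop, 3.65 for 1700007K13Rik, 3.87 for Krt13 and 4.04 for Robo3, which stood at a mean of 0.565 TPM in UN, 2.90 TPM in UH, 3.06 TPM in SN and 165 TPM in SH. It was 3.88 for Lgals2, 3.90 for Adamts16, 3.97 for Limch1, 4.77 for Sned1 and 5.84 for the predicted gene Gm17035. Of these, Lgals2, Adamts16, Limch1 and Sned1 fell in unsorted cells. Gm17035 was at 0, 35.4 and 0 TPM in UH, its change in unsorted cells was not called (adjusted p = 0.117), and its difference lost its call without UH replicate 1 or 3 and without several others. UN replicate 1 was the lowest UN library for these 4 genes and for Gm17035, and its part in these differences was not tested beyond the fits that leave it out.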

How the results depend on the processing

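Median-of-ratios scaling gave 1565 higher and 1224 lower genes in UH against UN, 906 more positive and 779 less positive differences in sorted cells, and 334 listed genes lower in place of 516. Quantile normalization gave 1341 lower genes and 774 more positive and 744 less positive differences. A pseudocount of 0.1 gave 1580 higher and 3302 lower genes and 2222 more positive differences. Dropping the fold limit gave 429 listed genes higher in place of 237 and 1124 lower, by construction. With each replicate left out in turn, higher genes numbered 976 to 1150, lower genes 1994 to 2619, more positive differences 1266 to 2110 and less positive ones 335 to 636, the highest (636) without UN replicate 1. Listed genes numbered 219 to 260 higher and 486 to 564 lower. The cause of these shifts was not tested. No called gene took the opposite call, but median-of-ratios scaling turned the balance of all calls and of several lists. Of 489 named genes, 44 calls were lost and 4 gained with median-of-ratios scaling, 34 and 3 with quantile normalization, and 12 and 3 without UN replicate 1.

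Same-numbered UH and UN libraries did not deviate together, with correlations of −0.044, 0.027 and 0.095 between their deviations from group means, so the numbers were not taken to pair the samples. A replicate block gave 1032 higher and 2224 lower genes, 1522 more positive and 400 less positive differences, 237 and 516 listed genes, and the same call for all 489 named genes. Depth is unknown, so genes near 0 TPM cannot be given a detection limit, and with 1 added to each TPM a gene under 1 TPM in UN cannot pass the limit for a lower call.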

Other observations

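Classes of transcripts differed in their counts of calls. Of 14560 protein-coding genes 906 (6.22%) were higher and 2054 (14.1%) lower in UH, against 5.46% and 11.8% of all tested genes. Of 591 lincRNA genes 32 (5.41%, near the share of all genes) were higher and 12 (2.03%) lower. Of 779 antisense genes 31 (3.98%) were higher and 21 (2.70%) lower. Level set which calls were possible, and among 5443 genes under 1 TPM in UN 220 were higher and 0 could be lower on this scale. Among small nucleolar RNA host genes and long noncoding RNAs, Snhg18 (log2 fold change 1.36), the imprinted gene H19 (1.35) and Snhg12 (1.32) rose and Snhg17 fell (−1.01, not called after median-of-ratios scaling or without UN replicate 3 or UH replicate 1). The H19 call was lost without UN replicate 1 or 3 or without UH replicate 2 or 3.

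The most abundant transcripts of the groups differed. In UN cells they were mt-Atp8, mt-Co1 and Eef1a1, at means of 12874, 10920 and 10749 TPM. In UH cells they were Gapdh, Eef1a1 and Tmsb10, which encodes thymosin beta 10, at means of 18785, 13454 and 12526 TPM. Gm13394, a processed pseudogene whose reads cannot be told apart from those of its parent gene, stood at means of 1295 TPM in UN and 6794 TPM in UH.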
